A study of Mus musculus with 18 samples.

Results

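Solute carriers were followed in the murine erythroleukemia line MEL, an established line of virus-transformed mouse erythroid precursors that turns toward hemoglobin-making cells when hexamethylene bisacetamide (HMBA) is added. The carriers were all probes with 1 platform gene symbol of the form Slc, family number, a, member number. The iron carriers Slc11a2 and Slc40a1 and the glucose carrier Slc2a1 were left out. Of 6868 probes on the array 103 had such a symbol, and 72 of these, for 71 of the 5974 named genes, had a value on at least 5 of the 18 arrays and are described here. Slc1a2 was the gene with 2 probes.

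Each two-colour array compared total RNA taken 0, 1, 2, 3, 4, 5 or 6 days after HMBA was added with RNA of uninduced MEL cells. On day 0 both channels held uninduced RNA, so a ratio away from 0 on those arrays was not a response to HMBA. There was 1 array per day in series A and 1 on days 0, 2, 3, 4, 5 and 6 in series B, so that each day had n = 2 and day 1 had n = 1. For 5 further arrays of series B, titled SD, the direction of the deposited ratios was not settled, and the comparisons rested on the other 13. The labels did not say whether arrays came from separate cultures, so every test measured only how arrays differ, and part of that may be technical. All values are log2 ratios with the median of their array subtracted, and a positive value likely means more in the induced RNA. In such bulk RNA fewer cells of a type and less RNA per cell cannot be told apart.

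Solute carriers are membrane proteins that move amino acids, sugars, ions, metals, vitamins and metabolites across the plasma membrane or organelle membranes, driven by gradients and not by ATP hydrolysis at the carrier itself. Members are numbered by family, and a family usually shares a fold and a kind of substrate. Maturing red cells are known for abundant band 3 (Slc4a1), the chloride and bicarbonate exchanger that also anchors the membrane skeleton, and they need glycine and iron for heme and cystine for glutathione. Some carriers work only with a partner, as Slc7a5 and Slc7a11 do with the heavy chain Slc3a2.

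Upstream sequence was searched for a pair of motifs, the GATA motif bound by the main erythroid transcription factors and the amino acid response motif bound by ATF4, a regulator of several amino acid carriers. The RefSeq promoter table (GRCm38.p6) held 75 windows of 250 bases before the start for 55 of the 71 genes. A GATA motif, spelled AGATAA with T also allowed as the first base and G as the last, on either strand, was in 20 of the 75 windows (26.7%) and in 26.5% of all 32851 windows. The amino acid response motif, spelled TGATGNAA on either strand, was in 5 of the 75 (6.67%) and in 3.45% of all. The windows of Slc7a11, Slc7a7, Slc17a1 and Slc50a1 held it, and that of Slc7a11 held 2 matches. A stretch of each kind is shown because the genes behind them, a cystine carrier and a vitamin C carrier, recur in the results. Both lie on the minus strand and are written 5′ to 3′ along it, with motif matches in capitals. The Slc7a11 stretch is chr3:50443614-50443713, bases -100 to -1 from the start, and the Slc23a2 stretch is chr2:132145471-132145570, bases -250 to -151.
Slc7a11: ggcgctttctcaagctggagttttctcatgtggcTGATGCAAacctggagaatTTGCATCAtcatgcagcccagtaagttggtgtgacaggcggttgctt
Slc23a2: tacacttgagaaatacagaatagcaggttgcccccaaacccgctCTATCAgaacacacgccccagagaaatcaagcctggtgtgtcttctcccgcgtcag
The share of windows with the GATA motif was close to that of all promoters, and a match describes letters only.

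Few carriers were measured throughout. Between 34 and 63 of the 72 probes had a value on each of the 13 arrays, and 24 entered the tests, which took 1221 probes with a value on at least 11 arrays and on a day 0 array. Of the 31 carrier probes below 5 arrays, 7 had a value on 1 array, 11 on 2, 5 on 3 and 8 on 4. Band 3 was among the last: its centred ratios were -0.26 on day 1, 0.10 on day 4 and -0.58 on day 6 of series A and -1.42 on the SD array of day 2. Next to it, with 4 values each, were Slc7a8, Slc26a2, Slc46a2, Slc2a8, Slc15a3, Slc6a4 and a second probe of Slc12a4. Just inside, with 5 values, were Slc35a2, Slc7a10, Slc22a5, Slc6a9, Slc7a2, Slc35a1 and Slc11a1. None of the 103 carrier probes had the symbol of the mitochondrial iron carrier Slc25a37, the mitochondrial glycine carrier Slc25a38 or the heme carrier Slc48a1. These carriers were therefore not analysed here. Erythroid markers stood late above day 0: 4.43 log2 for Hba-ps3 of the alpha-globin family, 2.34 for Hbb-b2, 3.60 for Alas2 of heme synthesis and 2.76 for Tfrc, the transferrin receptor. Neither globin passed at an adjusted p under 0.05 in limma. Alas2 and Tfrc had too few values for the test and 1 day 0 array each. The globins also served to call the direction of the ratios, so they are no separate check of it.

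**Figure D1:**
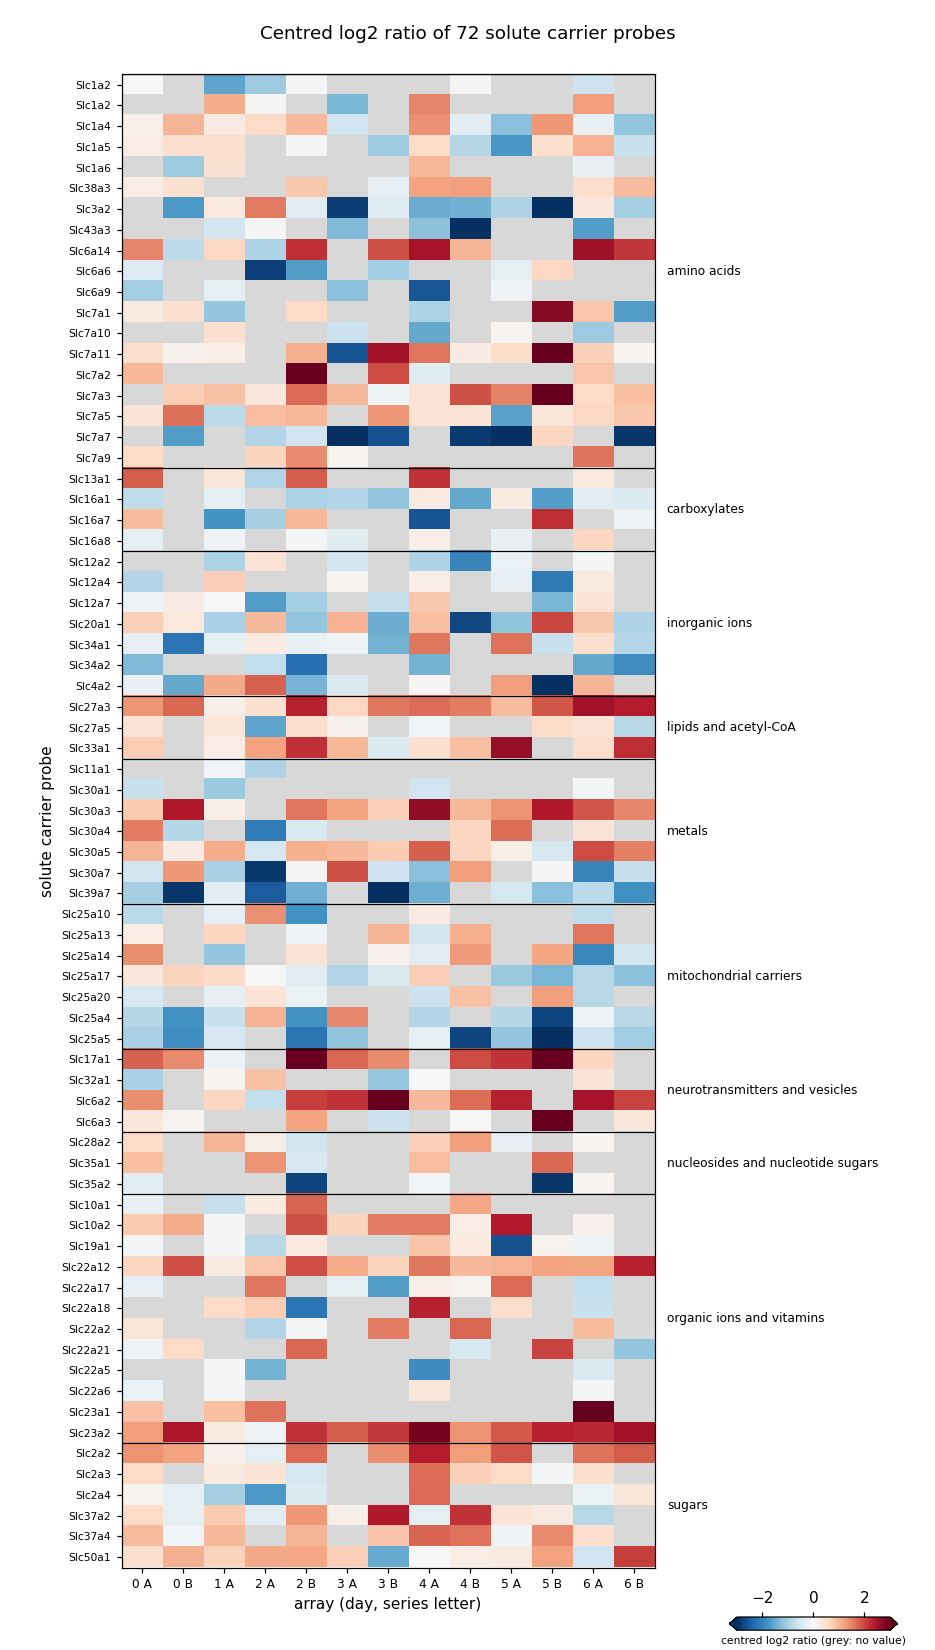
Each row is 1 of 72 solute carrier probes, grouped by substrate class, and each column is 1 of the 13 arrays, named by day after HMBA and series letter. Colour is the centred log2 ratio, capped at -3 and 3, and grey is no value; rows such as Slc23a2, Slc30a3 and Slc27a3 are red and Slc39a7 is blue on day 0 as well as late.

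The late comparison set the mean of days 4, 5 and 6 against day 0 and asked which carriers differed once cells had spent most of the course in HMBA. The phosphate carrier Slc34a1 had the largest positive late difference of the tested carriers and Slc25a17, a peroxisomal carrier of coenzyme A and related nucleotides, the largest negative. Neither passed: at an adjusted p under 0.05 in limma 0 of the 24 tested carriers were called, as were 0 of all 1211 probes tested (0%). At an unadjusted p under 0.05, 1 carrier, Slc34a1, was among 28 probes (2.31%). Over the 65 carriers with any late and day 0 value, 43 lay above day 0 and 22 below, with a median of 0.33 log2 and a range from -1.25 to 2.20. Over all 4263 probes with such values the median was 0.18, and 59.8% lay above. The carriers' median depended on the scaling: it was 0.57 without centring, 0.21 with arrays set to equal spread and 0.03 with quantile normalization, where the median of all tested probes moved from 0.21 to 0.46, 0.16 and 0.11. The members' count above day 0 was 34 of 65 with quantile normalization. Single carriers changed sign as well: 13 of the 65 late differences did so with equal spread, 15 with quantile normalization and 8 without centring. Among those too sparse to test, Slc34a2, Slc12a7, Slc17a1, Slc2a3, Slc7a1 and Slc35a1 changed sign with equal spread and with quantile normalization, Slc6a9 with equal spread and Slc10a2 with quantile normalization. Without centring the sign changed for Slc19a1, Slc6a9, a Slc1a2 probe, Slc34a2, Slc27a5, Slc12a7, Slc28a2 and Slc22a21.

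**Figure D2:**
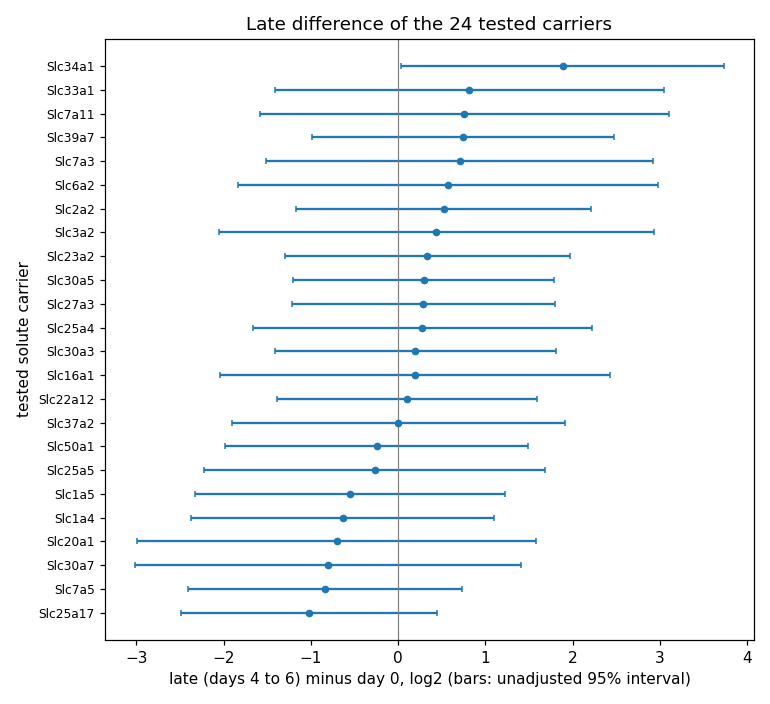
Points are the late (days 4, 5 and 6) minus day 0 differences in log2 of the 24 tested carriers, and bars are 95% intervals of limma's fit without adjustment for the number of probes. The interval of Slc34a1 (0.03 to 3.73) is the one that leaves out 0, and no carrier passed after adjustment.

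Carriers of inorganic ions are described first. Slc34a1 is the sodium-phosphate cotransporter best known from the kidney. Its centred ratios were -0.30 and -2.21 on the day 0 arrays of series A and B, 1.57 on day 4 of series A, 1.64 and -0.67 on day 5, and 0.49 and -0.85 on day 6. The 5 late values lay above the day 0 mean of -1.26, but those of series B on days 5 and 6 lay below day 0 of series A, so the groups overlapped. The late difference was 1.88 log2 (SE 0.87, adjusted p = 1.00 in limma), and it was 0.93 or 2.84 when day 0 of series B or A was left out. Slc9a3r1 (NHERF1), the scaffold protein that holds Slc34a1 at the kidney cell surface and no carrier itself, was 1.87 log2 above day 0 (SE 0.75) on 6 of 6 late arrays. Slc9a3r1 did not pass at an adjusted p under 0.05 in limma. By Pearson's r over the arrays that both probes shared, the genes most like Slc34a1 among 1241 compared were Pkm (0.94 over 11 arrays), Il13 (0.93 over 12), Nipa2 (0.89 over 12), Prdx2 (0.87 over 10) and Snrpc (0.86 over 10). These arrays share the control RNA and their series letters.

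The widely expressed phosphate carrier Slc20a1 had a late difference of -0.70 (SE 1.08). It was 0.71 and 0.32 on day 0, and its late values were 0.90 and -2.73 on day 4, -1.20 and 2.00 on day 5, and 0.81 and -0.93 on day 6. Late values thus spread on both sides of day 0. The anion exchanger Slc4a2, the widely expressed relative of band 3, was -0.24 and -1.54 on day 0. It was 0.04 on day 4, 1.26 and -3.13 on day 5 and 1.02 on day 6. The difference of 0.93 was 0.20 or 1.66 when day 5 of series A or B was left out. It was -0.054 when the series letter entered the fit as a block. Slc34a2, a phosphate carrier of lung and gut, was negative on all 6 arrays that measured it (-2.25 to -0.75), day 0 included. The chloride cotransporters of family 12 help set cell volume in red cells. Slc12a4 was -0.88 on day 0 and 0.21, -0.25, -2.13 and 0.26 late, a difference of 0.64 with 3 of 4 arrays above. Its second probe, with a value on fewer than 5 arrays, was -0.82 on day 0 and -1.07 on day 4 of series A. There the first probe was -0.88 and 0.21, so the probes disagreed on day 4. Slc12a7 was -0.14 and 0.24 on day 0 and 0.81, -1.37 and 0.42 late (-0.10), and Slc12a2, without a day 0 value, was -0.92, -1.99, -0.21 and -0.03 late. The class of 7 probes had 3 above and 3 below day 0 among the 6 with a difference, with a median of 0.27. With equal spread or quantile normalization 5 of 6 lay above, with medians of 0.79 and 0.74. Leaving out day 5 of series A or B gave 0.05 or 0.76.

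Amino acid carriers, the largest class with 19 probes, had 9 above and 7 below day 0 late and a median of 0.25 log2. It was -0.099 without day 5 of series B and, over the 12 carriers that kept a difference, -0.015 without day 0 of series B. Slc6a14, a broad carrier of neutral and cationic amino acids, had the largest late difference in the class. It was 1.46 and -0.79 on day 0 and 0.63 on day 1. Day 2 gave -0.92 and 2.18, and day 3 of series B gave 1.90. Late it was 2.46 and 1.02 on day 4, and 2.54 and 2.15 on day 6. In series B the values of days 2 and 3 thus already lay above that of day 4. The 4 late values lay above the day 0 mean of 0.33, while that of day 4 in series B lay below day 0 of series A. The difference was 1.71 log2, 0.58 or 2.84 when day 0 of series B or A was left out, and it had too few values for the test.

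The heavy chain Slc3a2 and the light chains that pair with it are given next. Slc3a2, which carries its partners to the cell surface, was -1.73 on day 0 of series B, 0.28 on day 1, 1.57 and -0.33 on day 2 and -2.83 and -0.38 on day 3. Its late values were -1.49 and -1.45 on day 4, -0.93 and -3.21 on day 5 and 0.33 and -0.99 on day 6. Its highest value was on day 2 of series A, and day 0, measured once, lay within the range of the late arrays. Slc7a5, the light chain for leucine and other large neutral amino acids, was 0.38 and 1.65 on day 0, 0.43 and 0.42 on day 4, -1.60 and 0.37 on day 5 and 0.62 and 0.80 on day 6. All 6 late values lay below the day 0 mean of 1.02, but 4 of them lay above its lower array. Its late difference was -0.84 (SE 0.74, adjusted p = 1.00 in limma), -0.21 or -1.47 when day 0 of series B or A was left out.

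Slc7a11, the cystine and glutamate exchanger that feeds glutathione synthesis and whose upstream stretch is printed above, was 0.53 and 0.12 on day 0 and 1.60, 0.24, 0.55, 3.34, 0.72 and 0.06 on the late arrays in order of day and series. Its difference of 0.76 (SE 1.10) was 0.29 without day 5 of series B. Slc7a7, the light chain that exports cationic amino acids, was -1.68 on day 0 of series B and -2.88, -4.35, 0.64 and -2.92 on day 4 of series B, day 5 of both series and day 6 of series B. Its late difference was -0.87, with 3 of 4 late arrays below day 0, and it was -0.043 without day 5 of series A. Slc7a3, a carrier of arginine and lysine, was above 0 on 11 of its 12 arrays and 0.70 above day 0 late (SE 1.04).

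The glutamine and neutral amino acid carriers Slc1a5 and Slc1a4 were -0.55 (SE 0.83) and -0.64 (SE 0.82) late against day 0. Slc1a5 had 3 of 6 late arrays on each side of day 0, and Slc1a4 had 4 of 6 below. Slc38a3, a sodium-coupled glutamine carrier, was 0.23 and 0.45 on day 0 and 1.20, 1.25, 0.52 and 0.94 on its late arrays. All 4 late values lay above both day 0 values. It was the 1 carrier of 26 with 2 day 0 and at least 4 late values without overlap upward (6.12% of 1535 probes), and 0 of 26 did so downward (3.13%). The late difference of Slc38a3 was 0.64, and -0.74 with SD arrays averaged in after their sign was turned. The glycine carrier Slc6a9, which erythroid cells use for heme, had 5 values, all in series A: -1.02, -0.28, -1.24, -2.57 and -0.11 on days 0, 1, 3, 4 and 5. Its late difference of -0.32 was 0.91 without day 4 of series A. The arginine and lysine carrier Slc7a1 had late values from -1.66 to 2.74 beside 0.28 and 0.51 on day 0, and a difference of 0.06. Slc1a6, a glutamate carrier, was -1.07 on day 0 of series B and 1.00 and -0.22 late. The pair of probes for the glutamate carrier Slc1a2 disagreed on shared arrays, with -1.59 and 1.12 on day 1 and -0.61 and 1.25 on day 6 of series A. Slc7a9 had 1 late value (1.63), and Slc7a10 went from 0.50 on day 1 to -1.54, 0.08 and -1.10 late.

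Mitochondrial and peroxisomal carriers of family 25 had 4 above and 3 below day 0 among 7 probes, with a median of 0.28. Leaving out day 0 of series B made it -0.19, and leaving out day 5 of series A made it -0.041. With equal spread or quantile normalization 5 of 7 lay above, with medians of 0.61 and 0.46. Slc25a5 and Slc25a4 are the ADP/ATP exchangers of the inner mitochondrial membrane. Slc25a5 was -0.97 and -1.86 on day 0 and between -4.22 and -0.30 late, below 0 on all 11 arrays that measured it. Its late difference was -0.27 (SE 0.91), and positive with equal spread (0.18) or quantile normalization (0.14) or without day 0 of series A, day 4 of series B or day 5 of series B. Slc25a4 was -0.87 and -1.81 on day 0 and between -2.76 and -0.14 late, and its positive values were 1.04 on day 2 and 1.43 on day 3, both in series A. Its late difference of 0.28 (SE 0.91) was negative without day 0 of series B or day 5 of series A.

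Slc25a17 was 0.33 and 0.68 on day 0 and 0.58 on day 1. It was already below 0 on day 2 (-0.0083 and -0.31) and day 3 (-0.91 and -0.43). Its late values were 0.73 on day 4 of series A, -1.11 and -1.37 on day 5 and -0.84 and -1.23 on day 6. It was below both day 0 values on 4 of 5 late arrays, with a late difference of -1.02 (SE 0.69, adjusted p = 1.00 in limma) that ranged from -1.19 to -0.84 over arrays left out in turn. Slc25a14, an uncoupling protein relative, was 1.39 on its day 0 array and -0.31, 1.27, 1.18, -1.93 and -0.54 late, so that 5 of 5 values lay below day 0. Its difference of -1.25 rested on that 1 day 0 value and could not be tested. Slc25a13 (aspartate and glutamate), Slc25a20 (carnitine) and Slc25a10 (dicarboxylates) were 0.72, 0.65 and 0.55 above day 0 on 3, 4 and 2 late arrays, of which 2, 2 and 2 lay above day 0.

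Of the 7 metal carriers 4 entered the tests, all of them zinc carriers. Slc30a3, a carrier of zinc into vesicles, was above 0 on all 12 arrays that measured it: 0.78 and 2.40 on day 0 and 0.99 to 2.65 late. Its late difference was 0.20 (SE 0.76), negative with equal spread (-0.072) or quantile normalization (-0.28), and -0.080 and -0.61 when day 4 or day 0 of series A was left out. Slc39a7, which releases zinc from the endoplasmic reticulum and Golgi, was below 0 on all 11 of its arrays: -0.99 and -2.92 on day 0 and -1.83 to -0.53 late. All 5 late values lay above the day 0 mean, the difference of 0.74 (SE 0.81) becoming -0.22 without day 0 of series B. Slc30a5 and Slc30a7, both loaders of zinc into the secretory pathway, differed by 0.29 (SE 0.71) and -0.80 (SE 1.04). Slc30a5 was negative with quantile normalization (-0.019), and leaving out day 0 of series B gave -0.091 for Slc30a5 and 0.13 for Slc30a7. The class had 5 of 6 probes above day 0 and a median of 0.32. With quantile normalization it was 3 of 6 (0.05), with equal spread 4 of 6 (0.18), and without day 0 of series B 3 of 6 (0.02). Slc30a1, the zinc exporter of the plasma membrane, was -0.67 on day 0, -1.11 on day 1 and -0.59 and -0.03 late. Slc11a1, a metal carrier of macrophage phagosomes, had no day 0 or late value among the 13 arrays and was -0.08 and -0.92 on days 1 and 2 of series A.

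Sugar carriers had 5 of 6 above day 0 late, with a median of 0.28. With equal spread or quantile normalization 3 of 6 lay above (medians -0.0059 and -0.11), and without day 0 of series B the median was 0.05. Slc2a4 (GLUT4), the insulin-regulated glucose carrier of muscle and fat, was 0.07 and -0.29 on day 0. Day 1 gave -0.99, day 2 gave -1.72 and -0.43, day 4 gave 1.69 and day 6 gave -0.21 and 0.35. Its late difference of 0.99 was 0.18 without day 4 of series A, the highest of its values. Slc2a2 (GLUT2, the liver and islet carrier) was 1.36 and 1.20 on day 0 and 1.25 to 2.36 late, a difference of 0.52 (SE 0.79) on 4 of 5 arrays. Slc2a3, a high-affinity glucose carrier, differed by 0.04, and Slc37a4, which takes glucose 6-phosphate into the endoplasmic reticulum, by 0.52. Slc37a2 (0.0011, SE 0.90) and Slc50a1 (-0.25, SE 0.82) sat near day 0, and both changed sign under alternatives.

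Among carboxylate carriers 2 lay above and 2 below day 0. Slc16a1 (MCT1), the lactate carrier, was -0.75 on day 0 of series A and 0.26, -1.55, 0.30, -1.66, -0.33 and -0.41 late, a difference of 0.19 (SE 1.04) that was -0.11 without day 4 and -0.14 without day 5 of series A. Its chaperone Bsg (basigin), no carrier itself, had a late mean of -1.05 and a day 0 mean of -3.27, a difference of 2.22 with 4 of 5 late arrays above. Bsg had too few values for the test. Slc16a7 (MCT2) was 0.95 on day 0 and -2.58, 2.21 and -0.15 late, so its difference of -1.13 was 0.075 without day 4 of series A. Slc16a8 (MCT3) stayed between -0.36 and 0.64 on its 7 arrays, with all 3 late values above day 0. Slc13a1, a sulfate carrier of kidney, was 1.82 on day 0 and 2.17 and 0.29 late. The 4 neurotransmitter and vesicle carriers lay above day 0 (median 0.78), but 2 of 4 with quantile normalization (0.17), 3 of 4 with equal spread (0.31) and 3 of 4 without day 5 of series B (0.29). Slc6a2 (noradrenaline) was 0.57 above day 0 (SE 1.12), and below it with quantile normalization (-0.25). Slc6a3 (dopamine) was 0.98 above, with 3.25 on day 5 of series B, and -0.047 without that array. Slc17a1, a phosphate and urate carrier of kidney placed here by its family, was above 0 on 9 of 10 arrays, with 1.78 and 1.41 on day 0. Slc32a1, the vesicular carrier of GABA and glycine, was -0.97 on day 0 and -0.01 and 0.39 late.

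Organic ion and vitamin carriers had 8 above and 2 below day 0 among 10 with a difference, with a median of 0.35. With quantile normalization 5 of 10 lay above (median 0.15) and with equal spread 6 of 10 (0.28). Without day 0 of series B it was 9 of 10 (0.67). Without day 0 of series A only 4 carriers kept a difference, with a median of -0.37. Slc23a1, a vitamin C carrier of epithelia, had the largest late difference of any carrier (2.20), from 1 late value (3.08) and 1 day 0 value (0.88). Slc23a2, the vitamin C carrier of most other cells, was 1.26 and 2.46 on day 0 and 1.35 to 2.87 late. Its late difference was 0.33 (SE 0.77), negative with equal spread (-0.062) or quantile normalization (-0.32), or when day 0 of series A was left out (-0.27). Slc22a12, the kidney urate carrier, was above 0 on all 13 arrays (0.27 to 2.33), with 0.65 and 1.93 on day 0 and a late difference of 0.10 (SE 0.70) that changed sign with either of those scalings. The folate carrier Slc19a1 was -0.20 late against day 0 with 3 of 5 late arrays above. Slc10a2, the bile acid carrier of the ileum, was 0.79 and 1.12 on day 0 and 1.55, 0.22, 2.37 and 0.13 late, on both sides of day 0. The liver bile acid carrier Slc10a1 had 1 late value (1.15). Of the organic cation, anion and carnitine carriers of family 22 beside Slc22a12, Slc22a17 differed by 0.61, Slc22a2 by 0.97, Slc22a6 by 0.36 and Slc22a21 by -0.12, each on 2 to 4 late arrays. Slc22a18 and Slc22a5 had no day 0 value, with late means of 0.72 and -1.15.

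Lipid and acetyl-CoA carriers were 3 probes, with 2 above day 0 and 1 with equal spread or quantile normalization. Slc27a3, an acyl-CoA synthetase of the fatty acid transport family, was above 0 on all 13 arrays (0.19 to 2.53), and its late difference of 0.29 (SE 0.71) was negative with equal spread (-0.11) and quantile normalization (-0.25). Slc33a1, which takes acetyl-CoA into the endoplasmic reticulum, was 0.76 on day 0 of series A and 0.49, 0.91, 2.64, 0.53 and 2.22 late, a difference of 0.81 (SE 1.04) that was -0.024 with SD arrays averaged in as deposited. Slc27a5, the bile acid and very long chain acyl-CoA synthetase of liver, was -0.34 late against day 0 with 3 of 4 arrays below. Of 3 nucleoside and nucleotide sugar carriers none had enough values for a test. Slc35a2 (UDP-galactose) was -0.35 on day 0, -2.77 on day 2 and -0.09, -2.93 and 0.05 late. Its late difference of -0.64 was 0.33 without day 5 of series B. The nucleoside carrier Slc28a2 differed by -0.32, with 2 of 4 late arrays below day 0, and Slc35a1 (CMP-sialic acid) by 0.42 on 2 arrays.

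Carriers with late ratios called away from 0 lay on the same side of 0 on day 0, where no induced RNA was present. With the late ratios set against 0 in place of day 0, 10 of the 24 tested carriers passed at an adjusted p under 0.05 in limma, 8 above 0 and 2 below, against 22.1% of the 1211 probes. Above were Slc23a2 (late ratio 2.19, SE 0.42, adjusted p = 0.0028), Slc6a2 (1.96), Slc27a3 (1.82), Slc2a2 (1.80), Slc30a3 (1.79), Slc33a1 (1.57), Slc7a3 (1.46) and Slc22a12 (1.39). Below were Slc25a5 (-1.68, SE 0.48, adjusted p = 0.020) and Slc3a2 (-1.29, adjusted p = 0.048). The day 0 mean of all 10 had the sign of the late ratio, from 0.75 to 1.86 in the former 8 and -1.42 and -1.73 in the latter pair, and so had 257 of the 268 probes that passed. Their late differences from day 0 were between -0.27 and 0.81, and Slc6a2, Slc33a1, Slc7a3 and Slc3a2 had 1 day 0 array each.

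Among the 50 carriers with a day 0 value and at least 3 late values, the day 0 and late means had the same sign in 37, with a Pearson's r of 0.78 and a Spearman's rho of 0.66 across probes. Across 3037 such probes of the whole array 2344 had the same sign, r was 0.68 and rho 0.69, so the carriers' share was close to that of all probes. The points share their arrays and the control RNA in every hybridisation, and probes are not independent replicates. Of 29 carriers with a value on at least 10 arrays, 3 were positive on every one (Slc22a12, Slc27a3 and Slc30a3, 10.3%, against 4.94% of 1699 probes) and 2 negative (Slc25a5 and Slc39a7, 6.9%, against 2.47%). On the SD arrays as deposited, carriers correlated with the series B array of the same day at r between 0.54 and 0.77 over 26 to 32 probes.

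**Figure D3:**
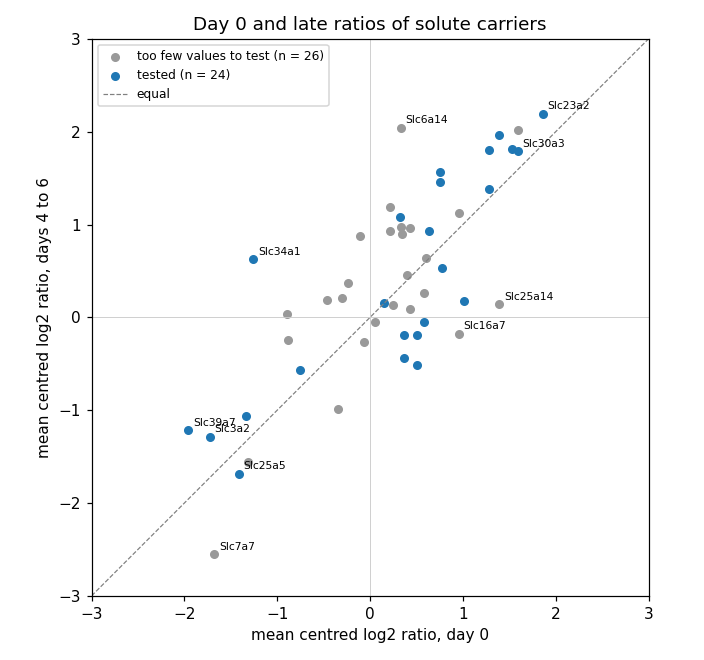
The x axis is the mean centred log2 ratio on day 0 and the y axis that of days 4, 5 and 6 for 50 solute carriers, 24 of them tested (blue), with the line of equality dashed. Most points follow the line (37 on the same side of 0 at both times), and Slc34a1 and Slc6a14 lie farthest above it.

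The early comparison set days 1 and 2 against day 0. No carrier of 24 was called (adjusted p under 0.05 in limma, 0% of 1060 probes), and none at an unadjusted p under 0.05 (3.49% of those probes). Of the 65 carriers with values 34 lay above day 0 and 31 below, with a median of 0.06 log2 beside 0.11 over all probes. The largest early difference of a tested carrier was that of Slc3a2 (2.18), which had 1 day 0 array, and the lowest that of Slc30a7 (-1.57), with -0.98 on day 1 and -2.88 and 0.04 on day 2.

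The comparison of late with early days took no day 0 array. Again no carrier of 24 passed (adjusted p under 0.05 in limma, 0% of 1050 probes), while Slc3a2 and Slc23a2 were below 0.05 without adjustment (6.38% of probes), and were singled out here after their values were seen. The comparison shares its late arrays with the one above. Slc3a2 was 1.74 log2 lower late than early in the fit (late minus early -1.74, SE 0.80, adjusted p = 0.73 in limma), with means of -1.29 and 0.45. The late value of 0.33 on day 6 of series A exceeded 2 of the 3 early values. Slc23a2 was 1.56 higher (SE 0.69, adjusted p = 0.73 in limma), with 0.26 on day 1 and -0.16 and 2.18 on day 2. Its early arrays of series A were thus low and that of series B was as high as the late ones, so the difference was 2.14 or 0.98 when day 2 of series B or A was left out. Over 71 carriers 43 were higher late than early and 28 lower, with a median of 0.25 beside 0.03 over all 5494 probes with values.

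Outside the tests the differences between late and early days were larger but rested on few arrays. Slc6a6, the taurine carrier, was -2.80 and -1.67 on day 2 and -0.28 and 0.63 on day 5, a difference of 2.42. Slc30a4, a zinc carrier of vesicles, was -2.09 and -0.45 on day 2 and 0.65, 1.67 and 0.38 late (2.17), and Slc2a4, given above, differed by 1.91. Slc7a2, a cationic amino acid carrier, was 2.96 on day 2 of series B and -0.37 and 0.83 late (-2.72). Slc43a3, a purine base carrier of the amino acid family, was -0.56 and 0.03 early and -1.23, -3.75 and -1.68 late (-1.82), and Slc7a7 differed by -1.81. In Slc6a6, Slc30a4, Slc2a4, Slc7a2 and Slc43a3 the late and early values did not overlap, but each had fewer late values than the minimum of 4 set for a count of such probes. The share of all probes without overlap at so few values was not counted. These carriers were also picked for their large differences, so the lack of overlap is no separate result. Of 38 carriers that met the minimum, 0 lay wholly above (1.71% of 2275 probes) or below (2.2%) their early values. By class, all 4 carboxylate and all 3 lipid and acetyl-CoA carriers lay above early days, with medians of 0.51 and 0.61, as did 5 of 6 metal carriers (0.78). Without day 2 of series A these medians were 0.19, 0.36 and 0.42, over 4 of 4, 2 of 3 and 4 of 6 above. Without day 4 of series A the carboxylate median was 0.091, with 2 of 4 above. Of 3 nucleoside and nucleotide sugar carriers 2 lay above (0.89). Without day 2 of series B it was 0 of the 2 that kept a difference, with a median of -0.18.

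**Figure D4:**
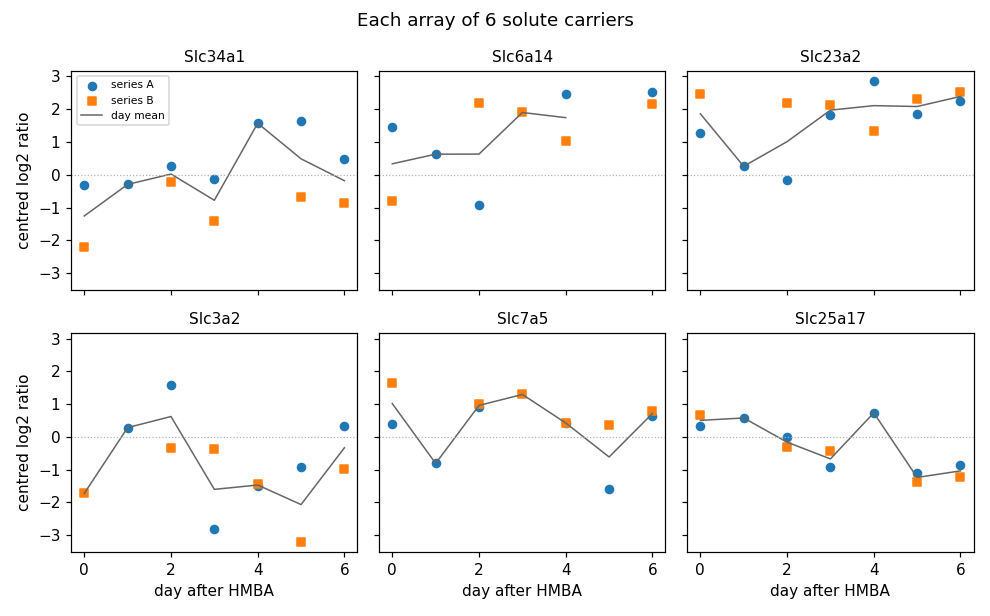
Panels give the centred log2 ratio of 6 carriers by day after HMBA, with circles for series A, squares for series B and a grey line through day means. Slc23a2 is high on day 0 and from day 3 on, and Slc3a2 is highest on day 2 of series A (1.57). Slc25a17 lies below 0 on days 2, 3, 5 and 6 in both series.

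Other transport genes were listed beside the carriers. Of ATP-driven pumps 5 of 7 lay above day 0 late (median 0.41 log2), of ABC transporters 8 of 12 (0.46) and of aquaporins 3 of 4 (0.23), and of the 6 tested none passed at an adjusted p under 0.05 in limma. Abcb9, a lysosomal peptide transporter, was 1.36 above day 0 on 5 of 5 late arrays. Among partner proteins of carriers 3 of 4 lay above, with Slc9a3r1 and Bsg given above, and of the 2 tested none passed. Epb42 (protein 4.2), which binds band 3, was 0.64 above on 2 of 2 arrays, and Ank1, its ankyrin anchor, was -0.47 (SE 0.95).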

How the data were processed

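Total RNA was measured on 18 two-colour arrays. The authors deposited 1 table of log2 ratios per probe and array, a scale read from the values themselves. The dyes, scanner, background correction and normalization before deposit are not given in the sources used here. Which channel is the numerator is unknown too, so the direction is called likely, from the channel labels and the globins. Low values of the 13 other arrays were log2 of ratios with 3 decimals. On the 5 arrays titled SD this held for high values with the sign changed. As deposited, they still correlated positively with the series B array of the same day (r from 0.42 to 0.66 over all probes). Their direction was thus not settled, and SD arrays stayed out of the comparisons.

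Each array was centred on its median. Probes were named from the platform annotation (6108 with 1 symbol, 41 with several, 719 with none), and all 72 carrier symbols matched a RefSeq gene table through Entrez identifiers. Day means over 13 arrays were fitted by probe with moderated tests from limma 3.58.1 in R 4.3.3 (Benjamini-Hochberg over all probes tested, threshold 0.05). The spread was shared between days (prior SD 0.97 log2), and day 1 with 1 array was assumed to vary like the others. A probe needed a value on 11 of 13 arrays, a day 0 value, and a value on every day of the comparison. The median SE was 0.82 log2 late, 0.93 early and 0.75 for late minus early. The number of arrays limits the precision. The fit was tested on 5 simulations of the late comparison with 1221 probes. Of simulated differences of 1, 2, 3 and 4 log2 it called 0.8%, 16.8%, 55.2% and 83.2%. A count of 0 called thus says little about late differences of 1 or 2 log2. Late means are means of day means. Differences of carriers outside the tests use the days that had a value.

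Carriers were named in full by a rule: the 8 largest positive and 8 largest negative late differences among those with at least 1 day 0 and 3 late arrays, the 3 largest each way for late minus early, and a list of carriers known in red cells. Other carriers were described by class or picked with their values in view. The carriers, classes and lists were chosen with earlier results of these data known. Alternatives were other scalings, SD arrays averaged in, other filters, the series letter as a block, a test against 0, and each array left out.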

Additional observations from a re-analysis of the deposited data

How the results depend on the processing

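No carrier was called in the early, late or late minus early comparison under any alternative run except for ratios set against 0, where 10 were called late and 268 probes in all. With the series letter as a replicate block 1 probe, no carrier, passed late, and leaving out each array in turn gave 0 to 1 probe (1 without day 3 of either series). The main fit did not take the series letter into account. Differences between A and B arrays correlated at -0.0098 to 0.42 (median 0.27) over 15 pairs of days, over 0.1 in 14. Probes thus differed between the series partly in the same way from day to day. The block gave late differences of -2.45 for Slc16a7, -2.24 for Slc25a14, -0.054 for Slc4a2 and -0.099 for Slc10a1. Without the block they were -1.13, -1.25, 0.93 and 1.37. With it the median over carriers of inorganic ions was -0.016. At an unadjusted p under 0.05 the late count was 28 of 1211 probes. It was 66 with quantile normalization, 53 with equal spread, 46 with the block and 3 to 42 over arrays left out. Early it was 37 of 1060, with 127 and 107 under quantile normalization and equal spread. Late minus early it was 67 of 1050, with 127 and 111. Only 290 probes had values on all 13 arrays, and of these 7 were counted late, 16 early and 23 late minus early. Those counts come from a smaller set and do not compare directly with the others.

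The median over tested carriers was 0.24 late, -0.23 with quantile normalization and -0.17 with SD arrays averaged in after their sign was turned. Early it was -0.0058 over 24 carriers and 0.49 as a ratio against 0. Over the 6 carriers with values on all 13 arrays it was -0.60, where the set of carriers changed. For late minus early it was 0.29, and 0.10 to 0.64 over arrays left out (0.64 without day 2 of series B, over 19 carriers).

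Among the 65 carriers with a late difference the sign changed in 13 with equal spread, 15 with quantile normalization, 8 without centring, 6 and 14 with SD arrays averaged in as deposited and with sign turned, 2 with the block and 15 as a ratio against 0. Values follow for the tested carriers. With equal spread they were -0.14 for Slc22a12, -0.062 for Slc23a2, 0.18 for Slc25a5, -0.11 for Slc27a3, -0.072 for Slc30a3 and -0.25 for Slc37a2. With quantile normalization they were -0.21 for Slc22a12, -0.32 for Slc23a2, 0.14 for Slc25a5, -0.25 for Slc27a3, -0.28 for Slc30a3, -0.019 for Slc30a5, -0.26 for Slc37a2 and -0.25 for Slc6a2. With SD arrays averaged in as deposited they were 0.26 for Slc25a5 and -0.024 for Slc33a1. With their sign turned they were -0.54 for Slc16a1, -0.14 for Slc25a4, -0.28 for Slc37a2, -0.11 for Slc39a7, -0.27 for Slc3a2 and -0.55 for Slc6a2. The ratio against 0, another quantity, was -0.57 for Slc16a1, -1.06 for Slc25a4, -1.22 for Slc39a7, -1.29 for Slc3a2, 0.53 for Slc50a1 and 0.18 for Slc7a5, and, of the untested, 0.14 for Slc25a14.

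Over arrays left out in turn the late difference ranged from -0.14 to 0.52 for Slc16a1, -0.54 to 0.74 for Slc22a12, -0.27 to 0.93 for Slc23a2, -0.19 to 0.75 for Slc25a4 and -0.78 to 0.24 for Slc25a5. It ranged from -0.61 to 1.01 for Slc30a3, -0.091 to 0.68 for Slc30a5, -1.74 to 0.13 for Slc30a7, -0.43 to 0.44 for Slc37a2, -0.22 to 1.70 for Slc39a7 and -0.69 to 0.20 for Slc50a1. The cause of these changes was not tested. Signal over background was not used here, so dim and bright probes could not be told apart.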
